A study of Zea mays with 6 samples.

Results

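In young maize tassels, 48 abundant genes had mean normalized counts 1.41 to 1.97 times as high in plants carrying the Bif1 and Bif4 mutations as in wildtype plants. They were chosen by these values among the 39305 genes of the deposited table. Each has a mean of at least 2000 normalized counts over the 6 libraries and a ratio of group means, Bif1;Bif4 over wildtype with 1 added to each mean, from 1.4 to below 2. In each, the lowest Bif1;Bif4 library lies above the highest wildtype library. Of 5 genes that the selection left out by name, 4 meet the same values. A normalized count is a read count divided by 1 scaling factor per library. It is not corrected for transcript length, so it compares libraries and not genes. Because the ratio and the separation of the groups chose the genes, both are given as descriptions, with no test.

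The tassel is the male inflorescence of maize, and here it was harvested at 2 to 4 mm. Wildtype B73 plants gave 3 libraries of 5 pooled tassels each. Plants heterozygous for both Bif1 and Bif4, also B73, gave 3 libraries of 10 pooled tassels each, and all plants were grown in a greenhouse. Genotype and pool size cannot be told apart. The labels describe no separate growths or harvests, so the spread between libraries is that between pools. BIF1 and BIF4 encode Aux/IAA proteins, which repress auxin-responsive transcription until auxin triggers their breakdown. Their dominant mutant forms reduce the initiation of branches and spikelets in maize. In pooled tissue, more cells of a type cannot be told apart from more RNA per cell.

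The reads counted on genes in the deposited table came to 21047225 to 24636859 per library. Of 8 symbols fixed for tassel meristems, 5 matched a gene, and their summed level was 13478 to 14447 in wildtype and 8065 to 9506 in Bif1;Bif4. Of these 5, 4 fell (adjusted p under 0.05 in limma, a test fitted over all genes), namely ra3, ids1, fl1 and bif2. Most of each sum was KN-1, at 8630 to 9258 in wildtype and 6797 to 7882 in Bif1;Bif4, which did not pass (limma adjusted p = 0.073). The largest fall was that of ra3, from 1128.5 to 2279.2 in wildtype to 1.96 to 4.86 in Bif1;Bif4. The 5 matched leaf genes summed to 785 to 900 in wildtype and 839 to 1201 in Bif1;Bif4, and 0 of them rose or fell. Most of each leaf sum was Pep1 (GRMZM5G899080), at 566 to 579 and 665 to 815. Of the 3 matched anther and tapetum genes, ms26 and ms8 were under 10 normalized counts in every library and ocl4 fell. The 4 matched vascular genes summed to 8.25 to 48.5 in wildtype and 30.1 to 36.2 in Bif1;Bif4, with 1 cesa11 identifier at 0 in every library. Among the 3 epidermal genes, which include ocl4 again, the sums were 4226 to 4951 and 3899 to 4279, and only ocl4 fell. The 4 matched stress genes summed to 42167 to 56308 and 42857 to 47399, and 0 rose or fell. Most of each stress sum was hsp70-4, at 38714 to 45178 in wildtype and 41752 to 45703 in Bif1;Bif4. Among the stress genes the lipoxygenase gene lox10 was at 17573 in wildtype replicate 2 and between 1028 and 1874 in the other 5 libraries. The part of tissue mix in the values of the 48 genes was not tested.

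Among all 3035 genes with a mean of at least 2000, 481 (15.8%) had every Bif1;Bif4 library above every wildtype library. Of these, 422 had a ratio below 1.4 and 7 a ratio of 2 or more. The remaining 52 (1.71%) are the 48 genes and the 4 left out by name. The 48 genes together held 0.650%, 0.704% and 0.698% of all normalized counts in wildtype replicates 1 to 3. In Bif1;Bif4 replicates 1 to 3 they held 1.06%, 1.09% and 1.11%. By ratio, 17 genes lay from 1.4 to 1.5, 11 from 1.5 to 1.6, 13 from 1.6 to 1.8 and 7 from 1.8 to 2.0, with a median of 1.57. The median ratio of all 3035 abundant genes was 1.01.

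**Figure D1:**
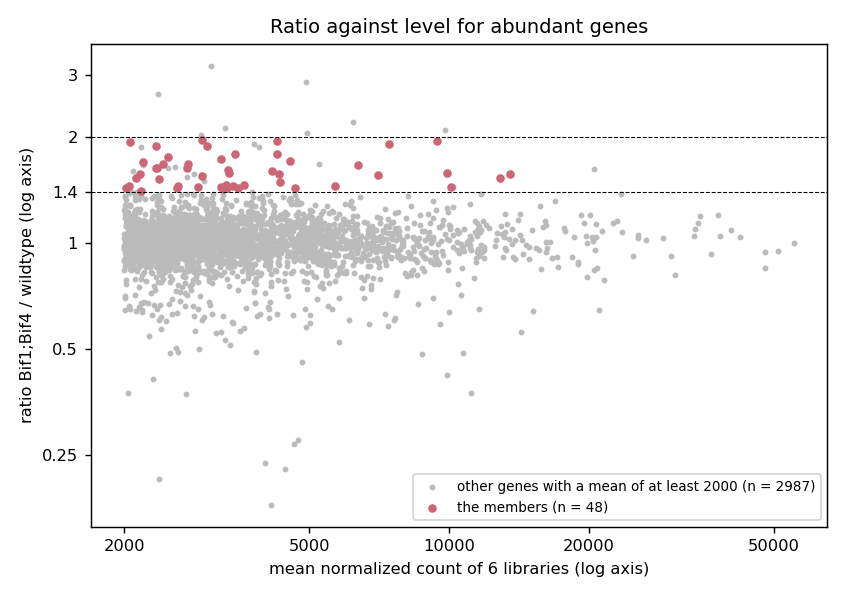
Ratio of group means, Bif1;Bif4 over wildtype, against the mean normalized count of the 6 libraries, both on log axes, for the 3035 genes with a mean of at least 2000. The 48 members (red) lie between the dashed lines at 1.4 and 2, and their levels run from 2016 to 13495; grey points between the lines are genes whose groups overlap or that were left out by name.

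Only 13 of the 48 genes carry a maize gene symbol in the RefSeq gene table, 39 match exactly 1 gene there, 1 matches more than 1 and 8 match none. The symbols name sugar, glucan and nitrogen enzymes, a cellulose synthase subunit, a 14-3-3 protein, a chaperone and DNA-binding proteins. Sugars imported by a growing inflorescence are phosphorylated before use, cellulose synthase builds the wall of expanding cells, and cytosolic glutamine synthetase fixes ammonium into glutamine.

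Enzymes of carbohydrate use were among the members. The fructokinase gene frk2 (GRMZM2G051677), whose product phosphorylates fructose, had 4429, 5599 and 4360 normalized counts in the wildtype libraries against 6861, 8029 and 9013 in the Bif1;Bif4 libraries, each in the order of replicates 1 to 3 as in all that follows. Its ratio was 1.66. The gene pho1 (GRMZM2G074158), for the plastidial starch phosphorylase that acts on glucan chains, was at 3026, 2663 and 2697 in wildtype against 3994, 4104 and 4075 in Bif1;Bif4. Its Bif1;Bif4 libraries were the closest together of all 48 genes, at 4057 ± 57.2 (SD, n = 3), against 2796 ± 200 (n = 3) in wildtype.

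Nitrogen and aminoaldehyde metabolism added another pair. Gln1-4 (GRMZM2G036464, also gln5 and gs1-4), a cytosolic glutamine synthetase gene, was at 1737, 2017 and 1255 in wildtype against 2340, 2220 and 2727 in Bif1;Bif4. The highest wildtype library and the lowest Bif1;Bif4 library differed by a factor of 1.1004. ALDH10A5 (GRMZM2G135470, also AMADH2), for an aminoaldehyde dehydrogenase that oxidises aldehydes from polyamine breakdown, was at 1806, 1808 and 1701 against 2776, 2963 and 2968. Its libraries were tight in both groups, and its lowest Bif1;Bif4 value was 1.54 times its highest wildtype value.

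CesA-8 (GRMZM2G177631), a catalytic subunit of cellulose synthase, had the least clear separation of all members. Wildtype libraries were at 2506, 2388 and 2026, and Bif1;Bif4 libraries at 3814, 4398 and 2509. Bif1;Bif4 replicate 3 lay barely above wildtype replicate 1.

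GF14-12 (GRMZM2G078641, also grf2) encodes a 14-3-3 protein, which binds phosphorylated partner proteins. It was measured at 7919, 7721 and 7448 in wildtype against 11463, 12660 and 12259 in Bif1;Bif4, with a ratio of 1.58 and a narrow spread in both groups. Hsp70 (GRMZM2G310431), named for the chaperone family that helps proteins fold, was at 1996, 1289 and 1738 and at 2180, 2487 and 3040. Here the highest wildtype library and the lowest Bif1;Bif4 library differed by a factor of 1.09.

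DNA-binding proteins were represented by 2 SBP genes and 1 AP2/ERF-type gene. The SBP gene sbp29 (GRMZM2G067624) had a ratio of 1.95, with 5930, 5437 and 7851 in wildtype against 13278, 11519 and 12648 in Bif1;Bif4. The SBP gene ub2 (unbranched2, GRMZM2G160917) was at 1547, 1170 and 2171 and at 3148, 2474 and 2687. In both, wildtype replicate 3 was the highest and replicate 2 the lowest of the wildtype libraries. EREB14 (GRMZM2G018398) was at 1903, 1643 and 1512 against 2453, 3245 and 2253, so Bif1;Bif4 replicate 2 stood above the other Bif1;Bif4 libraries.

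The roles of the last 3 genes with a symbol are not certain from the symbol alone. AUX6 (GRMZM2G035465) was at 2728, 2517 and 2441 in wildtype against 4193, 4723 and 3486 in Bif1;Bif4, a ratio of 1.61. TPS5 (GRMZM2G099860), a symbol that other maize identifiers also carry, was at 2925, 3160 and 2755 and at 4310, 3749 and 4846. The gene mde1 (GRMZM2G155281) was at 3105, 3662 and 3675 and at 5008, 4161 and 6381, with Bif1;Bif4 replicate 3 well above the other Bif1;Bif4 libraries.

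**Figure D2:**
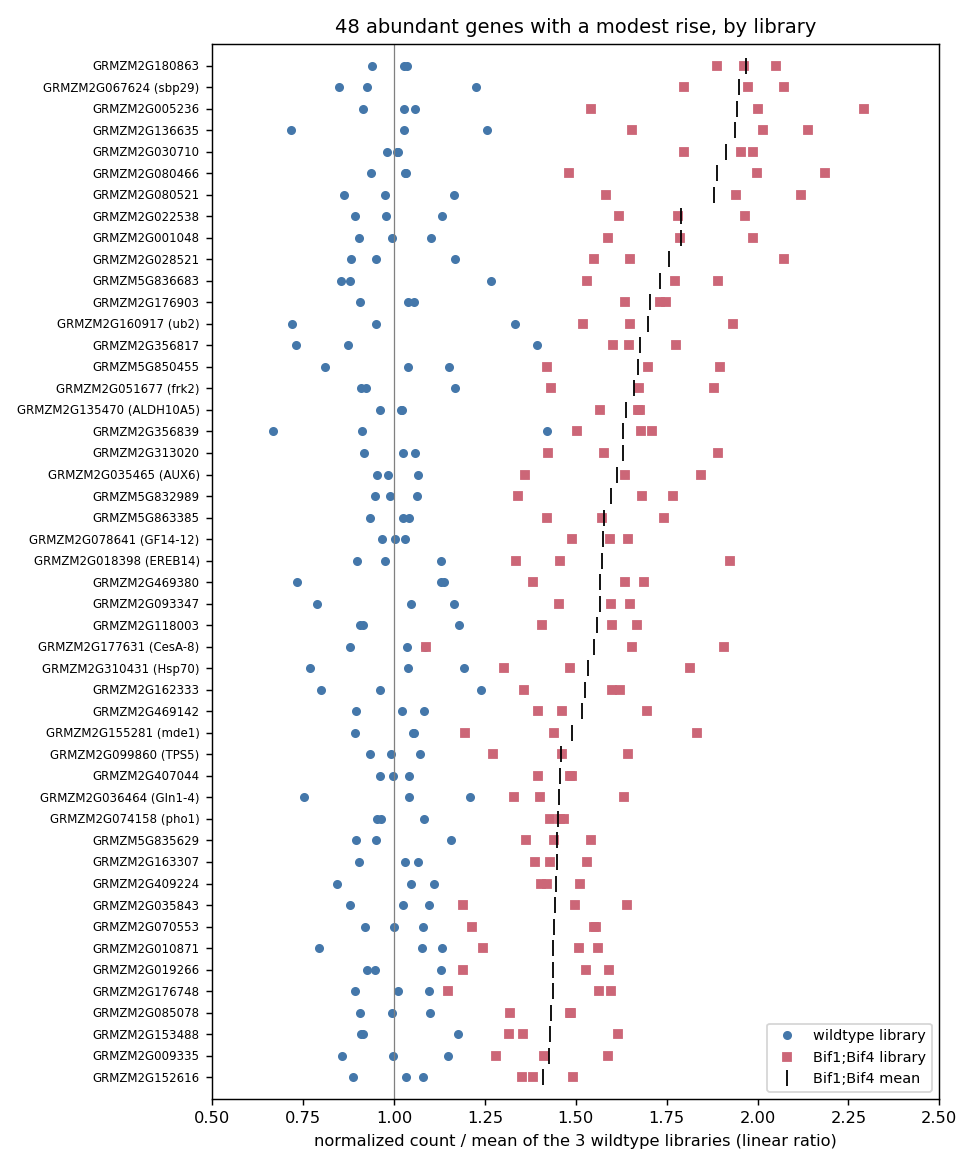
Normalized count of each of the 48 genes in every library, divided by its mean over the 3 wildtype libraries (linear axis), with genes ordered by ratio. Circles are wildtype libraries, squares are Bif1;Bif4 libraries and black ticks are Bif1;Bif4 means; no square lies left of a circle of its gene, the gap is widest in GRMZM2G180863 and nearly closed in CesA-8.

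Several genes without a symbol had the widest gaps. GRMZM2G180863, which had the highest ratio (1.97), was at 2052, 2036 and 1861 in wildtype against 3744, 4065 and 3894 in Bif1;Bif4. Its lowest Bif1;Bif4 library was 1.82 times its highest wildtype library. GRMZM2G030710 was at 5137, 5154 and 4991 against 10124, 9951 and 9163, and its wildtype libraries were the closest together of the 48 genes, with a coefficient of variation of 1.77%. GRMZM2G176903, a further unnamed gene singled out after its values were seen, was at 3040, 3542 and 3491 against 5867, 5488 and 5818. With ALDH10A5, these are the 4 genes whose gap between the groups exceeded a factor of 1.5.

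Others near the upper bound spread more. GRMZM2G005236 was at 2655, 3067 and 2975 in wildtype against 4467, 6644 and 5798 in Bif1;Bif4, a ratio of 1.94. GRMZM2G136635 was at 1440, 1002 and 1760 and at 2998, 2318 and 2824. For GRMZM2G080466 the values were 1671, 1667 and 1517 against 3236, 2399 and 3540. In these 3 genes the distance between the lowest and the highest library of at least one group was large beside the gap between the groups. GRMZM2G080521 (ratio 1.88) was at 1802, 2439 and 2039 and at 3314, 4437 and 4063. GRMZM2G022538 and GRMZM2G001048 both had a ratio of 1.79, and GRMZM2G028521 had 1.76.

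By normalized count, the leading gene was GRMZM2G469380, with 11867, 7710 and 11957 in wildtype against 17190, 14517 and 17731 in Bif1;Bif4. GRMZM2G162333 followed with 8153, 9804 and 12653 and with 16554, 13840 and 16319. The wildtype libraries of both genes spread widely, with coefficients of variation of 23.1% and 22.3%. GRMZM2G409224 was at 8631, 9158 and 6939 against 11581, 12458 and 11712. Also among the 10 highest were GRMZM2G118003, with a ratio of 1.56, GRMZM2G163307, with 1.45, and GRMZM2G019266, with 1.44. The 18 members with no symbol, outside the 10 highest by count or ratio and not next to a bound, had ratios of 1.43 to 1.73 and means of 2016 to 4541 normalized counts. Their lowest Bif1;Bif4 library was 1.05 to 1.55 times their highest wildtype library. The leading gene ranked 79th of all genes by level and the last of the 48 ranked 3001st.

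Close to the bounds, the choice of members was a matter of a few percent. GRMZM2G152616 (ratio 1.41) and GRMZM2G009335 (1.43) lay just inside the lower bound, while GRMZM2G100484 and GRMZM2G108285 lay just outside it with ratios of 1.39 and 1.38. At the upper end sbp29 (1.95) and GRMZM2G180863 (1.97) lay inside, and GRMZM2G071620 (m31, 2.02) and GRMZM2G132547 (2.09) outside. A further 10 abundant genes had a ratio in the range but overlapping groups. One was the glutamine synthetase gene gln1-3, in which wildtype replicate 2, at 2410, lay above Bif1;Bif4 replicate 1, at 2280.

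On the log2(value + 1) scale, the 48 genes had fold changes of 0.50 to 0.98 with a median of 0.66, and standard errors of 0.07 to 0.27 in a limma fit over all 21924 tested genes. The median over all tested genes was 0.01 and over the abundant genes 0.02. At a Benjamini-Hochberg adjusted p under 0.05, limma called 31 of the 48 genes higher. It called 2.13% of all tested genes and 2.73% of the abundant genes higher, and nothing is read from this difference since the same contrast chose the members. With edgeR's quasi-likelihood test, run on reads recovered from the table, the count was also 31 (1.95% of all tested genes), and DESeq2 called 48 (4.57%). In the authors' deposited table, 48 of 48 have an adjusted p under 0.05, as do 4.26% of its genes with a p in that direction. The authors' deposited table gives log2 fold changes 0.829 to 0.976 times as large as the log2 ratio of the means, with a median of 0.928.

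Not called by limma were 17 members, among them CesA-8, ub2, EREB14, Hsp70, Gln1-4 and mde1 as well as the leading genes GRMZM2G469380 and GRMZM2G162333. Counting error was small beside the spread between pools. At these depths it gave a median coefficient of variation of 1.98% in wildtype and 1.58% in Bif1;Bif4, whereas the libraries of a group differed with a median of 11.1% in wildtype and 10.8% in Bif1;Bif4. Over all 3035 abundant genes the medians between libraries were 8.46% and 4.63%. A mirror set of 76 abundant genes with lower values in Bif1;Bif4, of the same size of change and with no overlap (2.5% of the abundant genes), had medians of 17.0% and 15.1%.

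Which library was highest or lowest within a group is described next; the selection used the same 6 values, so these shares are no test. Wildtype replicate 2 was the highest wildtype library in 25 of the 48 genes (52.1%) and in 22.6% of all abundant genes, among which replicate 1 was most often the highest (59.2%). In the mirror set of lower genes it was the highest in 67.1%. Within Bif1;Bif4, replicate 1 was the lowest library in 22 of the 48 genes (45.8%), in 33.3% of the abundant genes and in 9 of the 76 mirror genes (11.8%). Both features occurred together in 13 members (27.1%) and in 9.39% of the abundant genes. The opposite, wildtype replicate 2 lowest with Bif1;Bif4 replicate 1 highest, occurred in 3 members (6.25%) and in 20.6% of the abundant genes. The deviations of wildtype replicate 2 and of Bif1;Bif4 replicate 1 from the other libraries of their group had a Pearson correlation of -0.31 across the 48 genes and of -0.09 across the abundant genes, which share their libraries.

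**Figure D3:**
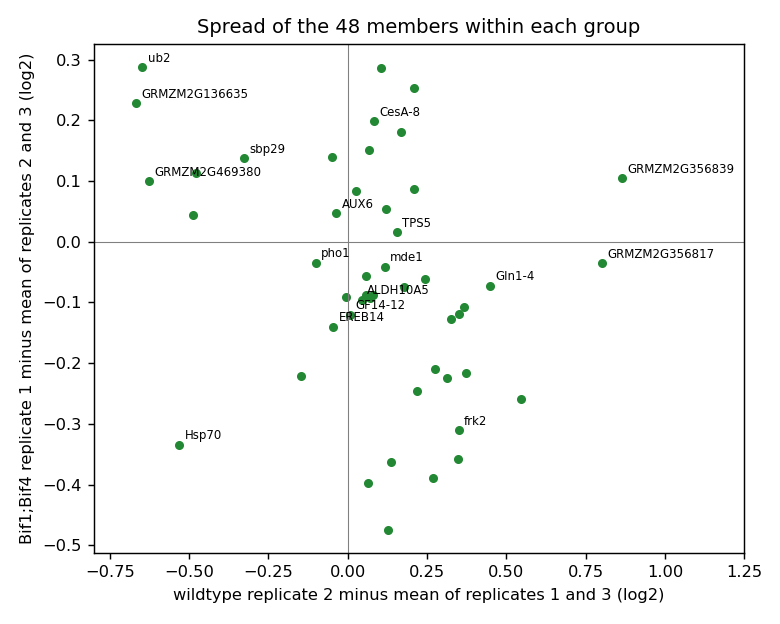
Deviation of wildtype replicate 2 from the mean of the other wildtype libraries (x) and of Bif1;Bif4 replicate 1 from the mean of the other Bif1;Bif4 libraries (y), in log2 units, 1 point per gene for the 48 genes. GRMZM2G356839 and GRMZM2G356817 lie far to the right at 0.86 and 0.80, and ub2, GRMZM2G136635 and GRMZM2G469380 far to the left.

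In particular, the unmatched identifiers GRMZM2G356817 and GRMZM2G356839 moved alike. GRMZM2G356817 was at 1499, 2858 and 1792 in wildtype against 3376, 3641 and 3286 in Bif1;Bif4. GRMZM2G356839 was at 1191, 2535 and 1627 and at 3050, 2998 and 2685. In both, wildtype replicate 2 was far above the other wildtype libraries and close to the Bif1;Bif4 level. After removal of the group means their log2 values correlated at 0.98 over the 6 libraries, and whether they share reads was not tested. Without wildtype replicate 2 their ratios were 2.09 and 2.07. The same measure was 0.97 for sbp29 and ub2, and both pairs were among the closest of the 1128 pairs of members. Of these 1128, 41 had a value over 0.9 and 23 a value under -0.9, with a median of 0.09. With the group means removed from 6 libraries, few independent values remain, so such extreme values also arise among unrelated genes. The first principal component, the direction in which the members varied most, held 48.7% of the remaining variance. Pairs of all abundant genes were not examined, so whether the members varied together more than others was not tested. Values of both signs occurred, so the members did not all move in the same direction within the groups.

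Leaving out a library changed the membership of some genes. Without wildtype replicate 2 the ratios of the 48 genes ran from 1.302 to 2.09, with 4 at 2 or more and 3 below 1.4. The 4 were the pair above, GRMZM2G080521 (2.05) and GRMZM2G005236 (2.00). The 3 below 1.4 were GRMZM2G469380, with 1.38, Hsp70, with 1.38, and GRMZM2G010871, with 1.302. Of the 48 genes, 19 met the selection with any 1 library left out, among them GF14-12, frk2, pho1, AUX6 and ALDH10A5. Limma called 11 higher in all 6 such sets, as it did 0.483% of all tested genes, and nothing is read from this since the contrast chose the members. These 11 include GF14-12, sbp29, pho1, ALDH10A5, GRMZM2G030710, GRMZM2G180863 and GRMZM2G176903.

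Genes grouped with the members that have a symbol were then examined, in 11 lists drawn up by symbol after the members were known. A list by symbol or pathway can mix unrelated protein families. The TPS list includes eks1, also KS, and the AUX list includes abp1 beside BIF1. The lists hold 12 members and 100 other tested genes, of which 5 rose, 6 fell and 89 did not pass (limma, adjusted p under 0.05; 2.13% and 2.91% of all tested genes rose and fell). The median log2 fold change of the 100 was 0.09. Genes that met the selection are members, so these 100 are the rest of each list, and they include ub3, which was left out by name.

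Among the 5 other tested glutamine synthetase identifiers, 1 rose and 0 fell. The cytosolic gene gln2 (GRMZM2G024104, also gs1-2) was at 719, 806 and 738 in wildtype against 1702, 2157 and 2345 in Bif1;Bif4. Its rise was 1.44 log2 units with SE 0.12 (limma adjusted p = 0.00082), the groups did not overlap, and the call held in all 16 alternative settings. The gene gln1-3 (GRMZM5G872068, also gs1-3) was at 1648 ± 680 and 2743 ± 418 (SD, n = 3 each) with overlapping groups, and did not pass (limma adjusted p = 0.21). Without wildtype replicate 2 it rose (log2 fold change 1.11, limma adjusted p = 0.011). A pair of identifiers that match the plastidial gene gs2 did not pass, at -0.48 (GRMZM2G098290) and -0.21 (GRMZM5G885867) log2 units. The first of them fell with DESeq2 (adjusted p = 0.021) and in limma with the replicate number as a block (adjusted p = 0.045). GLN6 (GRMZM2G050514, also GS1-1) was low, at 38.5, 11.9 and 52.6 against 8.75, 13.9 and 5.87, and passed only without wildtype replicate 2 (log2 fold change -2.20, limma adjusted p = 0.020).

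Of the 9 tested cellulose synthase genes other than CesA-8, 9 had a log2 fold change above 0, as did 50.9% of all tested genes. The same count was 3 of 3 other aminoaldehyde dehydrogenase, 2 of 2 other Hsp70, 1 of 1 other 14-3-3 and 1 of 1 other fructokinase genes. It was 2 of 5 other glutamine synthetase, 5 of 16 other AUX and 3 of 10 other TPS genes. For the rest it was 10 of 18 other SBP, 16 of 24 other EREB and 8 of 11 other sucrose and starch genes. Of the 9 cellulose synthase genes, 0 passed with limma, edgeR or DESeq2 and 1 had an unadjusted p under 0.05. Their median log2 fold change was 0.24. CesA-3 (GRMZM2G039454) had 6808 ± 876 in wildtype against 7996 ± 575 in Bif1;Bif4, with CesA-2 (GRMZM2G027723) at 1998 ± 411 and 2736 ± 679, and CesA-6 (GRMZM2G113137) at 3223 ± 521 and 4166 ± 1079 (SD, n = 3 each). CesA-8, CesA-2 and CesA-6 were each highest in Bif1;Bif4 replicate 2 and lowest of that group in replicate 3.

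**Figure D4:**
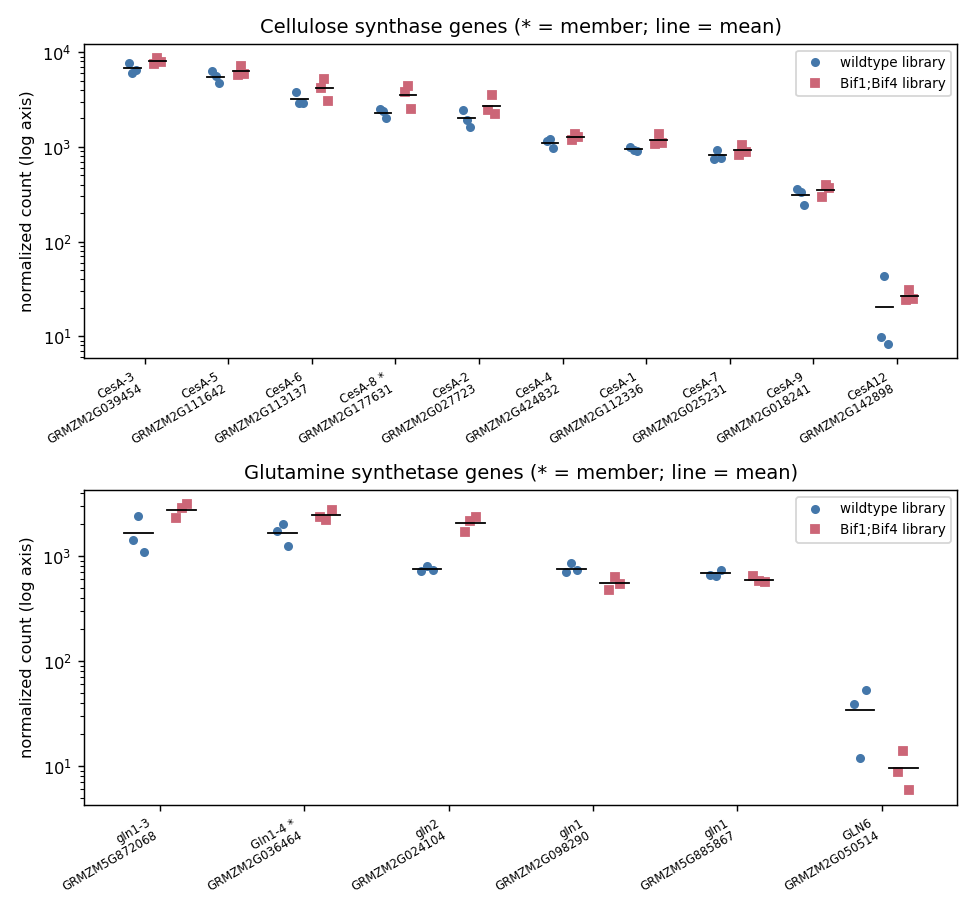
Normalized counts (log axis) of the tested cellulose synthase genes (top) and glutamine synthetase genes (bottom) in every library, replicates 1 to 3 from left to right within each group, with lines at group means. Stars mark the members CesA-8 and Gln1-4; gln2 shows 3 Bif1;Bif4 libraries far above its wildtype libraries.

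GF14-6, frk1 and ALDH10A9, which each share a list with a member, did not pass with limma. Their kinship to that member was not examined by sequence. GF14-6 (GRMZM2G102499), the other 14-3-3 gene with this kind of symbol, was at 9408 ± 281 and 10617 ± 859 (log2 fold change 0.17, SE 0.08, limma adjusted p = 0.29). The second fructokinase gene frk1 (GRMZM2G086845) was at 864 ± 95.6 and 946 ± 83.4 (0.13, SE 0.11, adjusted p = 0.53). ALDH10A9 (GRMZM2G016189), a further aminoaldehyde dehydrogenase gene, was at 2571 ± 96.9 and 3022 ± 41.9 (0.23, SE 0.07, adjusted p = 0.084). Of the 3 other tested genes in the list of ALDH10A5, 0 passed with limma or edgeR and 1 had an unadjusted p under 0.05. With DESeq2 1 rose, ALDH10A9 (adjusted p = 0.019). The difference between a member and another gene of its list was not tested, since the members were chosen for their change.

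Among 11 other genes of sucrose and starch use, incw1 (GRMZM2G139300), for a cell wall invertase that splits sucrose, alone rose and 0 fell. It was at 21.1 ± 5.63 and 85.4 ± 20.2 (1.97, SE 0.30, limma adjusted p = 0.010). Sucrose synthase genes sh1 (GRMZM2G089713) and sus1 (GRMZM2G152908) did not pass, with log2 fold changes of 0.13 and 0.06 (limma adjusted p = 0.67 and 0.83). The third sucrose synthase gene sus2 (GRMZM2G318780) was at 96.7 ± 16.6 and 230 ± 97.2 and did not pass (1.18, SE 0.30, adjusted p = 0.065). It passed with DESeq2 (adjusted p = 0.0025) and, in limma, without Bif1;Bif4 replicate 3 (adjusted p = 0.037). Of 10 other TPS symbols, tps26 (GRMZM2G030583) rose from 633 ± 72.1 to 1046 ± 33.6 (0.73, SE 0.10, adjusted p = 0.0059). Among 16 other AUX symbols 1 rose, AUX14 (GRMZM2G077356), from 194 ± 21.0 to 419 ± 64.9, and 4 fell, of which 1 is BIF1 itself. Of these falls, AUX9 lost the call with edgeR and in all 6 sets with a library left out, and AUX34 lost it in 4 of them. SBP genes had 1 rise (sbp2) and 1 fall (sbp27) among 18 others. Of 24 other EREB genes 1 fell (EREB93), and of 2 other Hsp70 genes limma, edgeR and DESeq2 called 0, with an unadjusted p under 0.05 for 0. Of these 2 falls, sbp27 lost the call in 5 and EREB93 in 4 of the 6 sets with a library left out. The SBP, EREB and Hsp70 lists had median log2 fold changes of 0.05, 0.13 and 0.26.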

How the data were processed

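The members, gene lists and tests were chosen with earlier results of these data known. The submitters' processing notes name HTSeq, DESeq2, Trimmomatic and TopHat2 2.1.1, while build, annotation and counting strand were not given in the sources used here. Per the labels, these were stranded TruSeq mRNA libraries. The deposited table holds read counts that the authors divided by 1 factor per library, treated here as a signal, and the authors' mean over libraries. It also holds the authors' log2 fold change, its standard error and Wald statistic (scores), and p-values. In each column 100% of values were whole multiples of 1 step (tolerance 1e-06 reads), so reads were recovered.

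The main test was limma 3.58.1 (trend, robust) on log2(value + 1) for genes with at least 10 normalized counts in at least 3 libraries; p-values are two-sided. Adjusted p are Benjamini-Hochberg over all tested genes. Alternatives were edgeR 4.0.16, DESeq2 1.42.0 and limma-voom on recovered reads, other filters, pseudocounts, median-centring, the replicate number as a block, leaving out each library, and, for the members, other bounds. Code was tested on simulated data. R 4.3.3 and Python 3.11.15 were used.

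Symbols came from a RefSeq gene table (Zm-B73-REFERENCE-NAM-5.0), used for names and gene order only; 18476 identifiers matched 1 gene. It gives no descriptions, so the functional classes planned from descriptions were not made, and lists by symbol replaced them. Genes named were the 10 highest by level, the 10 highest by ratio, those next to a ratio bound and all members with a symbol; others were chosen after their values were seen. Near-identical copies can share reads, so their values are uncertain.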

Additional observations from a re-analysis of the deposited data

How the results depend on the processing

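The count of 48 members was 49 with TMM scaling and 48 with total reads, with 48 and 47 genes shared. It was 90 and 16 with a mean of at least 1000 and 4000, and 95 and 31 with a ratio from 1.3 and 1.5, by construction. With overlap allowed it was 58, and with a library left out 47 to 71, of which 37 to 41 were among the 48. The median log2 fold change of the 48 stayed between 0.64 and 0.68 in all alternatives.

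Limma's 31 member calls became 48 with DESeq2, 11 at an adjusted p under 0.01, and 18 to 38 with a library left out (18 without wildtype replicate 1, 38 without wildtype replicate 2). Over all genes 467 were called higher and 637 lower. DESeq2 called 1001 and 1117, a threshold of 0.01 left 94 and 180, and leaving out a library gave 167 to 776 and 282 to 627. The causes were not tested. Among the 100 other genes of the lists, 5 rises and 6 falls became 9 and 8 with DESeq2 and 3 and 2 at 0.01. A library left out gave 5 to 12 rises and 2 to 6 falls. The 12 rises were found without wildtype replicate 2. Of the 6 falls, sbp27, EREB93, AUX34 and AUX9 each lost the call in several alternatives, AUX9 with edgeR also. With a library left out, the log2 fold change of sus1 (GRMZM2G152908) ran from -0.0066, without Bif1;Bif4 replicate 2, to 0.175, and it passed in none of these sets.

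With the replicate number as a block, 33 members, 381 higher and 429 lower genes were called. Across genes, the deviations of libraries with the same number had correlations of 0.07, -0.17 and -0.03, so the numbers were not taken to pair the libraries. Counting error in members (median coefficient of variation 1.98% and 1.58%) was below the spread between pools (11.1% and 10.8%).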

Other observations

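The place of the members beside the mutated genes was looked at in RefSeq gene order, with no test. GRMZM2G080521 lies 11 protein-coding genes from BIF1, the nearest of the 39 placed members. The member nearest to BIF4 is GRMZM5G835629, at 144 genes. Within 50 protein-coding genes on either side of BIF1, 36 genes were tested, of which 2 rose and 1 fell (limma, adjusted p under 0.05), a share of 8.33%. Of the 2 that rose, 1 is GRMZM2G080521 itself, which was chosen for its rise. Around BIF4 the share was 4.55% of 44 tested genes, and over all 14206 placed and tested genes it was 5.48%. Between members, the nearest neighbours were GF14-12 (GRMZM2G078641) and ALDH10A5 (GRMZM2G135470), 9 protein-coding genes apart, and both were among the members called in every set with 1 library left out.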
